A study of Caenorhabditis elegans with 16 samples.

Results

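The data described here are the RNA polymerase landscape of the hypodermis in baf-1(G12T) larvae of Caenorhabditis elegans. It was measured by RAPID, a form of DamID in which RPB-6, a subunit shared by the nuclear RNA polymerases, is fused to the bacterial DNA adenine methyltransferase Dam, so that GATC sites close to the polymerase acquire a methyl mark by which the DNA is later selected. The members are all genes of the deposited table for this tissue and genotype that carry a name and contain at least 4 GATC fragments, the stretches of DNA between GATC sites over which a gene score is averaged. This rule kept 16283 of 19974 named genes, which were ranked by their score, log2(Dam::RPB-6/GFP::Dam). A positive score means that the polymerase fusion methylated the gene more than freely diffusing GFP::Dam did. The highest and the lowest 5.00% of the ranking, 814 genes each, are called the highest and the lowest tail below.

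Of 16 libraries in the series, made from 2 tissues in wild type and mutant, 4 belong to the hypodermis of the mutant. They are 2 replicates of Dam::RPB-6 from strain BN1416 and 2 of GFP::Dam from strain BN1048. Both strains carry baf-1(bq19[G12T]), the worm counterpart of a human progeria mutation, and an FLP recombinase driven by the dpy-7 promoter, which is active in hypodermal cells. FLP removes a cassette with mCh::his-58 that blocks the Dam fusion, which is then expressed at trace levels from the uninduced hsp16.41 promoter of a single-copy insertion. For each strain 4000 L4 larvae were collected after 48 h at 20 °C on dam-negative bacteria, and their DNA (200 ng) went through 14 cycles of PCR. The wild-type hypodermis, the wild-type intestine and the intestine of baf-1(G12T) larvae (mutant intestine), used below for comparison, have the same construct in the same design, with FLP under the nhx-2 promoter for the intestine and with GFP::Dam libraries of their own. Each table holds 1 score for each gene, made by the authors from both replicates, so no spread between replicates can be given and no difference was tested. The tables carry no counts, and the depth behind each score is unknown from them. In the study's sequencing summary the 2 Dam::RPB-6 libraries of this tissue and genotype were of very unequal depth, and the part of this in the scores was not tested.

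The hypodermis is the epithelium that covers the worm. It secretes the collagens and other apical matrix proteins of the cuticle anew at each larval stage, and it anchors the body wall muscles to the cuticle through hemidesmosome-like structures built on intermediate filaments. L4 larvae are preparing the last molt. BAF-1, a small DNA-binding protein, links chromatin to the lamin LMN-1 and to the LEM-domain proteins of the nuclear envelope. In RAPID, genes with much polymerase score high, whereas a negative score is relative to GFP::Dam and therefore also depends on how accessible the gene was to free Dam.

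Marker genes of several cell types were located in the ranking. The lists were chosen with earlier results of these data known, so they are no separate check of the tissue label. The collagen gene dpy-13 scored 2.78 and held rank 11, and mua-6, which encodes an intermediate filament protein of the epidermis, scored 1.44 at rank 109. In wild-type intestine dpy-13 scored 0.80 at rank 195, within the highest tail there, and in mutant intestine 0.01. The corresponding scores of mua-6 were -0.31 and -0.19. Of 16 hypodermal markers 14 were ranked, and 7 of these were called transcribed, which here means an FDR under 0.05 in the authors' table, against 8.57% of all ranked genes (1396 of 16283). Beside dpy-13 and mua-6 the called markers were lin-26, a zinc finger gene required for epidermal fate (2.06), the collagen sqt-3 (1.07), the apical matrix gene noah-1 (0.97), the GATA factor elt-3 (0.92) and the nuclear receptor nhr-25 (0.47). All 7 lay in the highest tail. The other 7 ranked markers scored between -0.19 (nhr-23) and 0.05 (wrt-2), and dpy-10, elt-1, wrt-10 and che-14 were among those below 0. The promoter that drives FLP belongs to dpy-7, which has only 3 GATC fragments and scored 0.03.

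Markers of other cell types stood lower. All 10 ranked intestinal markers of a list of 14 scored below 0, none was called, and pept-1 (-0.64), cpr-1 (-0.61) and vha-6 (-0.50) were in the lowest tail. In wild-type intestine 6 of these 10 scored above 0, led by asp-1 (2.14), act-5 (1.59) and vit-2 (1.19). The other 4 were below 0 there too, namely cpr-1 (-0.59), elt-2 (-0.29), pept-1 (-0.12) and ges-1 (-0.07). Their low scores thus do not separate this tissue from wild-type intestine. In mutant intestine cpr-1 (0.38) and pept-1 (0.16) were above 0, whereas elt-2 (-0.075) and ges-1 (-0.06) were again below 0. Not every gene with a high score in wild-type intestine was low here. Of protease genes outside the list, asp-3, asp-6 and asp-5 were in the highest tail here (0.70, 0.69 and 0.51). By contrast asp-2 (-0.36) and cpr-6 (-1.12), also high in wild-type intestine, were in the lowest. Muscle and pharynx genes lay near 0. The 10 body wall muscle markers scored from -0.25 (tnt-2) to 0.15 (unc-54) and the 8 pharyngeal markers from -0.14 (myo-1) to 0.06 (phat-1), with 0 called in either list. Of 12 neuronal markers only the kinesin unc-104 was called (0.24), and sbt-1 (-0.44) lay in the lowest tail. Of 10 germ line markers 1 was called, the sperm gene spe-9, with a score of 1.67 at rank 73. Single calls in lists of 12 and 10 are close to the 8.57% called among all ranked genes. The median of the hypodermal list was 0.26 and the medians of the other 5 lists lay between -0.16 and -0.03, which the plot of markers by cell type shows.

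**Figure D1:**
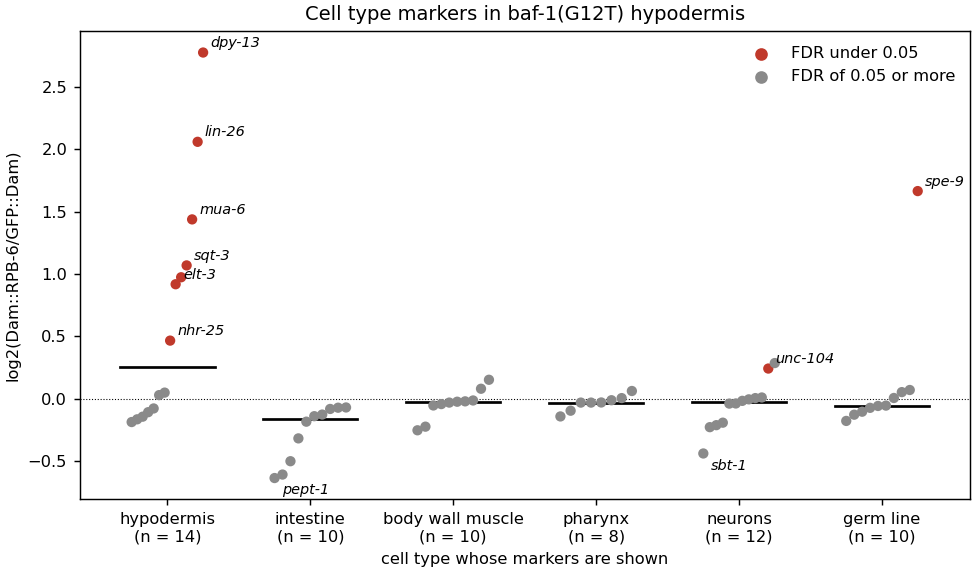
Deposited score, log2(Dam::RPB-6/GFP::Dam), of each ranked marker gene (points) in baf-1(G12T) hypodermis, by the cell type it marks, with the median of each list as a bar and genes at an FDR under 0.05 in red. The 7 red hypodermal points reach 2.78 (dpy-13), whereas all 10 intestinal points lie below 0.

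Across all ranked genes the scores were concentrated near 0 with a longer upper tail. The median was -0.03, and 9905 genes scored below 0, 6256 above 0 and 122 exactly 0. The quartiles were -0.12 and 0.04, while 244 genes exceeded 1 and 41 exceeded 2. Only 18 genes were below -1, and 0 were below -2. The highest tail ended between W01A11.7 at rank 814 and cyp-32A1 at rank 815, both with a score of 0.46 after rounding, and the lowest tail began between tag-65 and F49E12.8, both at -0.35. The median score was 0.76 in the highest tail and -0.46 in the lowest. All 814 genes of the highest tail were called by the authors' FDR, as were 582 genes outside it, down to a score of 0.16, and 0 genes of the lowest tail. Since the call is made from the same score, this is a description of the ranking and not separate evidence.

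**Figure D2:**
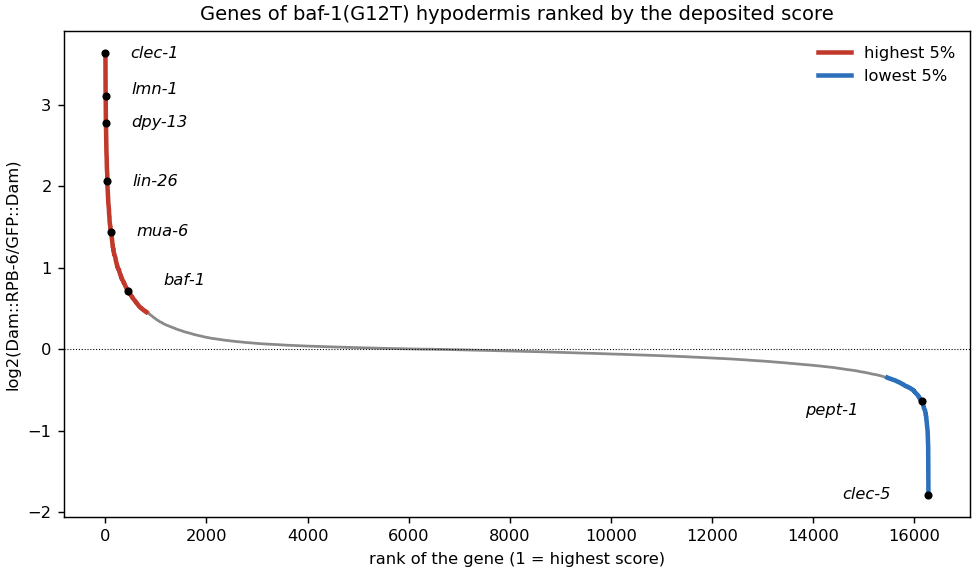
Deposited score against rank for the 16283 ranked genes of baf-1(G12T) hypodermis (line), with the highest 5% in red, the lowest 5% in blue and 8 named genes as points. The upper end reaches 3.63 (clec-1) and the lower end -1.79 (clec-5), and most of the line lies close to 0.

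The 20 highest genes mixed cuticle, translation and nuclear envelope functions with genes known only by their sequence names. The C-type lectin gene clec-1 (chromosome V, 5700154 to 5701080) ranked first with 3.63, followed by osm-11 (3.34), which encodes a secreted Notch co-ligand involved in the response to osmotic stress. The cuticle collagens col-39 (3.19) and dpy-13 (2.78) held ranks 4 and 11. The lamin gene lmn-1 held rank 6 with 3.11 over 17 fragments. Translation was represented by eef-1A.2, an elongation factor (2.89), and by the large ribosomal subunit genes rpl-10 (2.79) and rpl-1 (2.65). Further down came lec-2, a galectin gene (2.43 over 21 fragments), and mag-1, which encodes a component of the exon junction complex (2.42). Of the genes without a characterised name, F21C3.7 scored 3.25, Y105C5B.9 3.15, F14E5.8 2.96 and F22B7.9 2.96. The others were Y40C7B.4, Y42A5A.3, C29E4.9, phf-30, F45D3.3 and F55A11.11, with scores from 2.46 to 2.74.

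Most of these genes are short. The 20 highest had a median length of 1139 bases and a median of 6 fragments, and 16 of them had 4 to 8 fragments, so that each score averages few fragments. Among genes with at least 16 fragments the 10 highest were lmn-1, lec-2, frm-7 (2.15), the fatty acid synthase gene fasn-1 (1.83 over 60 fragments), the polyubiquitin gene ubq-1 (1.77), the nuclear receptor nhr-114 (1.66), F36A2.3 (1.56), cbs-1, which encodes cystathionine beta-synthase (1.49), mua-6 (1.44) and the RNA-binding protein gene rbm-26 (1.44). The score of fasn-1 averaged 60 fragments (FDR of 3.2e-38) and that of clec-1 only 4 (FDR of 1.1e-07). Scores are not stranded, and neighbouring or overlapping genes share fragments. Thus col-39 overlaps dph-2 (1.17) and lies 343 bases from another collagen of the highest tail, col-79 (1.97), and F22B7.9 lies 383 bases from flp-23 (1.46). C29E4.9, phf-30, F55A11.11, Y42A5A.3 and mag-1 each overlap another gene, and the scores of those partners were lower, such as 0.24 for ubc-12 beside mag-1. By contrast clec-1 stood alone, with its nearest neighbour peli-1 (-0.05) 4729 bases away, and the nearest gene to Y40C7B.4, T25G12.13 (0.00), was 11381 bases away.

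The 20 lowest genes, from -0.99 down to -1.79, included secreted and lysosomal proteins and small mitochondrial genes. Another C-type lectin, clec-5 (chromosome III, 4881888 to 4883606), was lowest with -1.79, and clec-51 followed higher up with -1.11. Among digestive or antimicrobial gene products, the cathepsin B-like protease cpr-6 scored -1.12 and the saposin-like protein spp-5 -1.11. The lipid-binding protein gene lbp-4 (-1.15) and the glucuronosyltransferase gene ugt-6 (-1.01) belong to metabolism. Mitochondrial functions were present with the thioredoxin gene trx-2 (-1.44) and the import gene tin-13 (-1.43). The eggshell gene perm-3 scored -1.42, the prolyl isomerase gene fkb-1 -1.30 and the polymerase subunit gene rpb-8 -1.05. The other 9 carry sequence names, from EGAP9.4 and F40F8.1 (-1.17 and -1.20) to F23F1.10 (-0.99). Their median length was 907 bases with a median of 6 fragments, and 16 of 20 had 4 to 8 fragments.

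The sequence just before the annotated start was examined for the genes at both ends because the tissue's GATA factors and the DamID method itself both depend on short motifs. For each gene the 250 bases before the start annotated by Ensembl were read from the WBcel235 assembly. The printed windows were cut shorter where an annotated exon lay closer. The windows in which motifs were counted were not cut and can include exons of neighbouring genes. The windows below, all written 5′ to 3′ in the direction of the gene, show in capitals GATC (the Dam site), TGATAA or AGATAA and their reverse complements TTATCA and TTATCT (the core bound by GATA factors), TATAAA and its reverse complement TTTATA, and TTTCAG where it is the last 6 bases, the usual form of a splice acceptor in this species, trans-splicing included. The first 5 belong to genes of the highest tail. They are col-39 (chrII:10704666-10704915, plus strand), dpy-13 (chrIV:4235366-4235613, plus), rpl-10 (chrII:8143631-8143880, plus), lec-2 (chrII:10016184-10016433, minus) and mua-6 (chrX:16265687-16265936, minus).
col-39: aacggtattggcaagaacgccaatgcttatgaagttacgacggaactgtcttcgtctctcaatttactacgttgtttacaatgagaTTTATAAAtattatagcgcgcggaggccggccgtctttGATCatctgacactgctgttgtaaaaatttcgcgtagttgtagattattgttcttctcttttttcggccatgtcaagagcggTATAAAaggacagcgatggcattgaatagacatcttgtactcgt
dpy-13: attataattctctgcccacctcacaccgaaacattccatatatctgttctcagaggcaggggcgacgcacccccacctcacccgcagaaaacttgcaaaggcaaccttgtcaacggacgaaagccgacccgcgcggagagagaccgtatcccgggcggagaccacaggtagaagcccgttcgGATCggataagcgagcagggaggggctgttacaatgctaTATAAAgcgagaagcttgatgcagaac
rpl-10: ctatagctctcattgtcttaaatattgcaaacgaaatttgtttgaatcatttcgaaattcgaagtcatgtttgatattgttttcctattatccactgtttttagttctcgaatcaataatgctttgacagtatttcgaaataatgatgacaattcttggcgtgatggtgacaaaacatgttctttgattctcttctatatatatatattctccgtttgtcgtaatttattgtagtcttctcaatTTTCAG
lec-2: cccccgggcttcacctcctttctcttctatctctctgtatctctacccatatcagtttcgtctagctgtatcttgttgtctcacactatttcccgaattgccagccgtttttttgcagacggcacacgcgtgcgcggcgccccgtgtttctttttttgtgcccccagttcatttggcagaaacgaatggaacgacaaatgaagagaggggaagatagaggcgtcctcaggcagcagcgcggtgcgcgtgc
mua-6: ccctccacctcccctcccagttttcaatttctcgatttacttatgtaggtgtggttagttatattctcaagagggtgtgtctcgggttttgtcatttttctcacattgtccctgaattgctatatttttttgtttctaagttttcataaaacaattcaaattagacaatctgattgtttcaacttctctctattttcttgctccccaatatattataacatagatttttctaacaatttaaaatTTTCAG

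In the collagen windows TATAAA began 44 bases (col-39) and 27 bases (dpy-13) before the start, and the 2 collagens had 1 GATC each and no GATA core. In col-39 a second TATAAA, at 162 bases, overlaps its own reverse complement. The windows of rpl-10 and mua-6 ended in TTTCAG and held neither TATAAA nor GATC. That of lec-2 held none of the marked motifs. The next 4 windows belong to genes of the lowest tail, clec-5 (chrIII:4883607-4883856, minus), cpr-6 (chrX:6606957-6607206, plus), spp-5 (chrX:7320355-7320604, minus) and clec-51 (chrIV:8163801-8164050, minus), and are shown because all 4 hold a TGATAA core on one of the strands.
clec-5: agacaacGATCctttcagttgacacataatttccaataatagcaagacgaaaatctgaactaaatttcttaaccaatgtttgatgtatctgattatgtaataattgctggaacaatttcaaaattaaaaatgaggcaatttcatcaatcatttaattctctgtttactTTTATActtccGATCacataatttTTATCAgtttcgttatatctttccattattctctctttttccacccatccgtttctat
cpr-6: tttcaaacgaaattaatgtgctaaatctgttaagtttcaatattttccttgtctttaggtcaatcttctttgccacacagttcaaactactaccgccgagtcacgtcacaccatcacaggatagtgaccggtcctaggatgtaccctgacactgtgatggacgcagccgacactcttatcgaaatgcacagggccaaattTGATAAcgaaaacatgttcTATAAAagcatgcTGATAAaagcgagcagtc
spp-5: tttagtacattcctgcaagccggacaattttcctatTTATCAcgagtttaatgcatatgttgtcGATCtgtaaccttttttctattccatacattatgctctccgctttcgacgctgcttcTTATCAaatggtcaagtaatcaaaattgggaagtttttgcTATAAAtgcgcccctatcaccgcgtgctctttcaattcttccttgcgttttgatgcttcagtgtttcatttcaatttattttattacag
clec-51: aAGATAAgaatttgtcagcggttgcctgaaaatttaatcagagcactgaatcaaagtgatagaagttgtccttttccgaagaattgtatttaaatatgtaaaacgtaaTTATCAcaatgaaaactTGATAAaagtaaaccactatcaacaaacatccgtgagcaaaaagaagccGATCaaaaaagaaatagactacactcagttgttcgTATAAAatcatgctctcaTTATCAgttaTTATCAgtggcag

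In cpr-6 the TGATAA cores began 50 and 18 bases before the start, on either side of a TATAAA at 31 bases. The window of clec-51 had 4 TGATAA cores and 1 AGATAA, that of spp-5 had 2 and that of clec-5 had 1. This contrast did not extend to the whole tails. TGATAA on either strand was present in 30.4% of the 812 windows of the highest tail and in 30.1% of the 813 windows of the lowest, against 27% of all 16259 windows. With AGATAA included, and windows with both counted once, the shares were 43.0%, 43.7% and 40.2%. TATAAA was found in 34.9%, 35.1% and 33.7%. GATC was present in 40.9% of the windows of the highest tail, 46.6% of those of the lowest and 37.9% of all. A difference between the tails was seen for GAGAGA on either strand, present in 27.7% (95% Wilson interval 24.7% to 30.9%, which covers counting of genes only) of the highest, 18.6% (16% to 21.4%) of the lowest and 19.7% of all. Windows ending in TTTCAG made up 20.0%, 18.3% and 13.5%. Within 2 families the motifs were counted in the highest tail and outside it. TATAAA was present before 16 of 25 cuticle collagens in the highest tail (64%) and before 80 of the 130 other ranked collagens (61.5%). GAGAGA was present before 12 of the 25 collagens of the highest tail (48.0%) and 31 of the other 130 (23.8%). Ribosomal protein genes went the other way, with GAGAGA before 0 of 18 in the highest tail and 8 of the 29 others. TTTCAG ended the window of 14 of 18 ribosomal protein genes in the highest tail and of 11 of the 29 others. For collagens the counts were 1 of 25 and 9 of 130. These are matches of letters and no binding was measured.

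The gene families were then placed in the ranking. Of 40 families defined by gene names, which cover 3341 ranked genes, the 4 with the largest shares in the highest tail were nuclear lamina genes, ribosomal proteins, hemidesmosome genes and molting regulators, whereas lysozymes and saposin-like genes had the largest share in the lowest tail. Shares are set against the 5.00% that each tail takes of all ranked genes, and median scores against -0.03. Members of a family are not replicates, and no test was made on them.

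**Figure D3:**
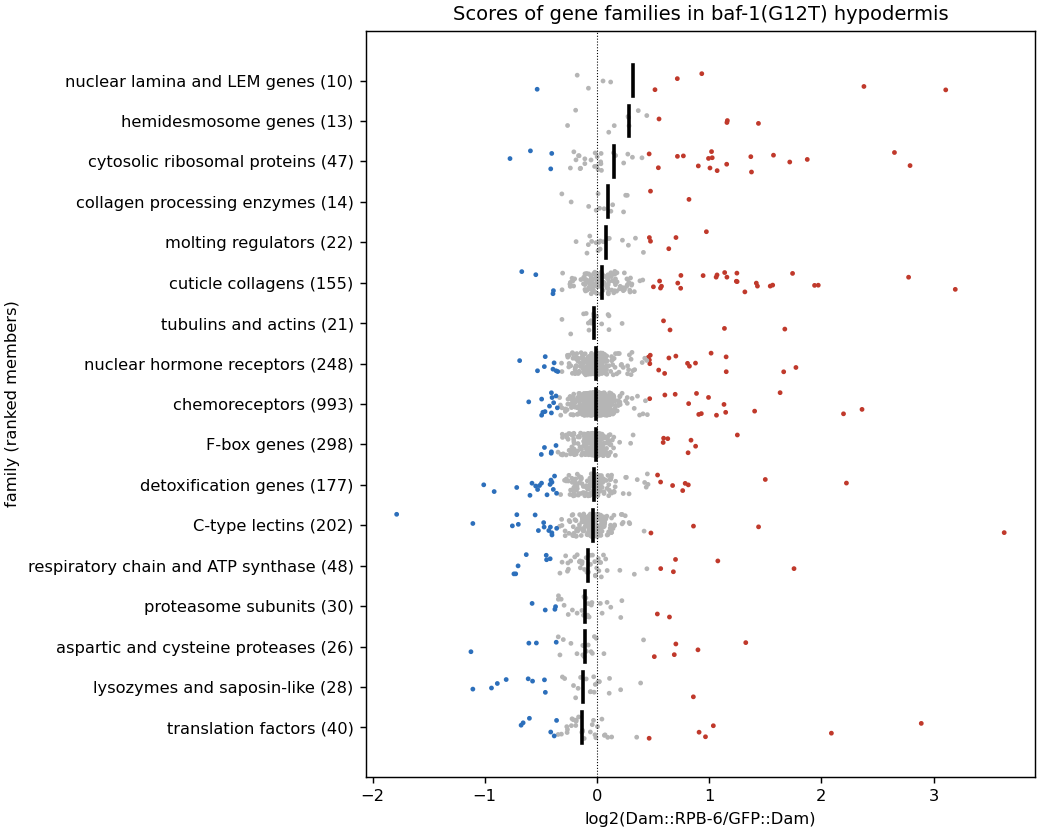
Deposited scores of the ranked members (points) of 17 gene families in baf-1(G12T) hypodermis, with the number of ranked members in parentheses, the median as a black bar, members of the highest 5% of all genes in red and of the lowest 5% in blue. Ribosomal and cuticle collagen genes spread to scores above 2.5, whereas lysozymes and saposin-like genes extend to -1.11.

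The cuticle collagens, which form the bulk of the exoskeleton, were the largest hypodermal family. Of 175 members 155 were ranked, and 25 of these were in the highest tail (16.1%, 95% Wilson interval 11.2% to 22.7%) against 4 in the lowest (2.58%). Their median was 0.05, so most members lay near 0, and 30 were called (19.4%, against the background of 8.57%). After col-39 and dpy-13 came col-79 (1.97), rol-8 (1.94), col-63 (1.74), col-160 (1.57), col-10 (1.54) and col-144 (1.43). Among them rol-8 and dpy-13 are known from mutants with altered body shape. The collagens of the lowest tail were col-110 (-0.67), col-172 (-0.55), dpy-14 (-0.39) and col-75 (-0.39). Other body shape collagens were spread over the middle, such as lon-3 (0.28), sqt-1 (0.24), dpy-3 (0.18), bli-1 (0.02), dpy-2 (0.00), dpy-9 (0.00) and dpy-17 (-0.31). In wild-type hypodermis 31 of the same 155 collagens were in the highest tail, and 15 genes were there in both genotypes. In the intestine the corresponding counts were 13 in wild type and 7 in the mutant.

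The enzymes that process collagen and the genes of the molt had members in the highest tail and none in the lowest. Of 14 collagen processing enzymes 5 were called (35.7%, against 8.57% of all ranked genes), with 2 in the highest tail and 0 in the lowest. They were the disulfide isomerase gene pdi-2 (0.82), the peroxidase gene mlt-7 (0.48), the protease genes bli-4 (0.27) and dpy-31 (0.26), and the prolyl hydroxylase gene dpy-18 (0.24). Of 22 molting regulators 8 were called (36.4%, against the same 8.57%), with 5 in the highest tail, 0 in the lowest and a median of 0.08. Those in the tail were noah-1 (0.97), mlt-3 (0.70), lrp-1, a lipoprotein receptor gene needed for shedding the old cuticle (0.64 over 100 fragments), mlt-7 (0.48) and nhr-25 (0.47). The nuclear receptor gene nhr-23, which acts early in each molting cycle, was the lowest member at -0.19. Cuticlins and other apical matrix genes did not follow, with 3 of 48 in the highest tail, led by cutl-28 (1.17), and 4 in the lowest, down to cutl-22 (-0.46). Hedgehog-related genes, which in nematodes encode secreted proteins linked to the cuticle, had 3 of 41 members in each tail, from grl-10 (1.80) to grd-3 (-0.47). Of 28 patched-related genes 6 were called (21.4%), and ptc-3 (0.64) and ptr-23 (0.52) were in the highest tail. Collagen processing enzymes, molting regulators and patched-related genes had medians of 14, 19 and 18 fragments, against 9 for all ranked genes. Genes with more fragments were called more often in general, as described below.

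The hemidesmosome genes, which hold the epidermis to cuticle and muscle, were the family with the largest called share. Of 13 members 9 were called (69.2%, against 8.57% of all ranked genes). In the highest tail there were 4 (30.8%, interval 12.7% to 57.6%), 0 were in the lowest, and the median was 0.29. The intermediate filament gene mua-6 led with 1.44, followed by the calreticulin gene crt-1 (1.16), the apical receptor gene mup-4 (1.16) and the basal receptor gene let-805 (0.55). Just outside the tail came the spectraplakin gene vab-10 (0.44 over 247 fragments), the receptor mua-3 (0.37), pat-12 (0.29), ifa-3 (0.28) and ifb-1 (0.28). The genes vab-19 (0.11) and sdn-1 (0.15) were not called, nor were the filament genes ifa-1 (-0.19) and ifa-4 (-0.26). These genes are long, with a median of 28 fragments, and long genes were called more often in general, as described below. In the other 3 groups mua-6 scored 0.30 in wild-type hypodermis, -0.31 in wild-type intestine and -0.19 in mutant intestine. For let-805 the corresponding values were 0.48, -0.14 and -0.05, and for mup-4 they were 0.93, -0.03 and -0.25. The gene crt-1 differed, with 1.28, 2.23 and 1.63, and was higher in both intestinal tables than here. Among 15 apical junction and polarity genes, dlg-1 (0.93) was in the highest tail and the kinase gene pkc-3 (-0.40) in the lowest.

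Genes of the nuclear lamina and its partners stood high as a group of 10, with a median of 0.32. In the highest tail there were 5 (50%, interval 23.7% to 76.3%), and 1 was in the lowest. For lmn-1 the score was 3.11 here, 0.02 in wild-type hypodermis, 0.49 in wild-type intestine and 0.05 in mutant intestine. The emerin gene emr-1 scored 2.38, -0.04, 2.43 and 1.06 in the same order. The second LEM-domain gene lem-2 scored 0.93, -0.05, -0.11 and 0.17. For baf-1 itself the scores were 0.72, 0.15, 2.02 and 0.81, with only 4 fragments. The kinase gene vrk-1, whose product releases BAF-1 from chromatin, scored 0.52, -0.12, 0.55 and 0.00. None of the 10 was in the highest tail of wild-type hypodermis. The outer nuclear membrane gene zyg-12 was low in both hypodermal tables (-0.53 and -0.50). The difference between genotypes has no replicate check in the scores used here, since each value is 1 score. The study itself compared RAPID scores between genotypes in both replicates, and it reported emr-1 as downregulated in the intestine of the mutant. By quantitative RT-PCR on whole worms the study found less lmn-1 mRNA in the mutant, with emr-1 and baf-1 unchanged. It also measured less GFP::LMN-1 at the nuclear envelope of hypodermal cells in the mutant. Those are measures of mRNA and protein, unlike the score here, and why they differ was not tested. Of 25 nuclear pore genes only npp-23 (0.92) was in the highest tail.

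Translation genes were split. Of 83 cytosolic ribosomal protein genes 47 were ranked, since 36 have fewer than 4 fragments. In the highest tail there were 18 of them (38.3%, interval 25.8% to 52.6%), in the lowest 4 (8.51%), and the median was 0.15. After rpl-10 and rpl-1 came rla-1 (1.87), rps-15 (1.72), rpl-20 (1.57), rpl-11.2 (1.38), rps-19 (1.37) and rps-1 (1.16). The lowest were rps-0 (-0.77), rpl-9 (-0.59), rps-17 (-0.41) and rpl-42 (-0.40). In the other 3 groups rps-0 scored 0.53, 0.47 and 0.48, and rps-17 scored 0.28, 1.96 and 0.66, in the order wild-type hypodermis, wild-type intestine and mutant intestine. The family had 27 of its 47 members in the highest tail of wild-type hypodermis and 0 in the lowest, with 12 members in the highest tail of both genotypes. Counts in the intestine were 27 (wild type) and 33 (mutant). Translation factors had 6 of 40 members in each tail and a low median of -0.13. Elongation factors led, with eef-1A.2 (2.89), eef-1A.1 (2.09), eef-2 (1.04) and eef-1G (0.91), whereas the cap-binding protein genes ife-3 (-0.68), ife-1 (-0.60) and ife-4 (-0.41) and the elongation factor eef-1B.1 (-0.66) were in the lowest tail. Mitochondrial ribosomal proteins had 5 of 45 members in each tail, from mrps-34 (0.81) to mrpl-35 (-0.68).

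Other housekeeping families likewise reached both ends. Of 48 respiratory chain and ATP synthase genes 5 were in the highest tail, among them the ATP synthase genes atp-4 (1.76) and atp-1 (1.08), and 7 in the lowest, among them the complex I genes nduf-6 (-0.74) and nduf-7 (-0.70) and atp-5 (-0.72). The proteasome had 2 of 30 members in the highest tail, pas-7 (0.65) and rpt-3 (0.54), and 4 in the lowest, with a median of -0.10. For the V-ATPase the counts were 2 and 3 of 18, from vha-12 (0.60) to vha-17 (-0.76). Heat shock proteins and J-domain cochaperones had 6 of 48 members in the highest tail, led by the constitutive chaperone hsp-1 (1.22), and 4 in the lowest, with dnj-21 (-0.98) and hsp-12.3 (-0.97). Of 21 tubulin and actin genes 4 were in the highest tail and 0 in the lowest. They were tbb-2 (1.67), the touch neuron tubulin mec-7 (1.14), tba-1 (0.65) and tba-2 (0.59). The tRNA synthetase ears-2 (1.98) and the superoxide dismutase gene sod-1 (1.46) were the highest of their families, in which 2 of 32 and 1 of 29 members were in the highest tail. Histones could hardly be judged, because only 20 of 83 were ranked, with htz-1, the H2A.Z variant, at the top (1.30). The RNA polymerase subunit genes ranged from rpc-25 (0.84) to rpb-8 (-1.05), and rpb-6, present also as the Dam fusion, scored 0.20 and was not called.

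Families of secreted, digestive and detoxifying proteins, many of them intestinal in worms, are given next. Lysozymes and saposin-like genes, C-type lectins and detoxification genes had more members in the lowest tail than in the highest. Of 28 ranked lysozyme and saposin-like genes 8 were in the lowest tail (28.6%), 1 was in the highest and the median was -0.12. After spp-5 came spp-17 (-0.94), spp-12 (-0.89), ilys-4 (-0.81), lys-3 (-0.61), ilys-5 (-0.57), spp-18 (-0.47) and lys-4 (-0.46), while lys-2 (0.86) was the exception at the top. In wild-type intestine spp-17 scored 2.05, whereas spp-5 scored -1.13 there. Of the 8 genes 7 were also in the lowest tail of wild-type hypodermis. The family had 3 of its 28 members in the lowest tail of wild-type intestine and 3 in that of mutant intestine. C-type lectins had the first and the last gene of the whole ranking. Of 202 members 4 were in the highest tail (1.98%) and 14 in the lowest (6.93%, interval 4.17% to 11.3%). The lowest tails of wild-type and mutant intestine held 17 C-type lectins each. Beside clec-1 the high members were clec-63 (1.44), clec-225 (0.86) and clec-261 (0.48), and after clec-5 and clec-51 the lowest were clec-52 (-0.75), clec-186 (-0.71) and clec-224 (-0.70). Aspartic and cysteine proteases reached both tails with 5 and 4 of 26. The aspartic proteases asp-12 (1.33), asp-3 (0.70), asp-6 (0.69) and asp-5 (0.51) were high, together with the cathepsin L gene cpl-1 (0.90), and the cathepsin B-like genes cpr-6, cpr-1 (-0.61) and cpr-3 (-0.54) were low. In wild-type hypodermis asp-3, asp-6 and asp-5 scored -1.27, -0.90 and -1.12, and in wild-type intestine 1.18, 1.32 and 0.92. Detoxification genes (cytochromes P450, glucuronosyl and glutathione transferases) had 8 of 177 members in the highest tail, led by gst-12 (2.22) and ugt-39 (1.50). In the lowest there were 16 (9.04%), with ugt-6 and gst-33 (-0.92) at the end. The lowest tails of wild-type and mutant intestine held 17 and 20 of the same 177. None of 6 vitellogenins, the yolk proteins made by the adult intestine, was in either tail, and their range was -0.08 to 0.06.

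Chemoreceptor, F-box, BATH and MATH, and homeobox genes had smaller shares of both tails than the 5.00% of all ranked genes. Of 1323 chemoreceptor genes 993 were ranked, with 15 in the highest tail (1.51%, interval 0.92% to 2.48%) and 12 in the lowest (1.21%). Called were 23 (2.32%, against 8.57% of all ranked genes), and the median was -0.005. The 15 included str-56 (2.36), srxa-8 (2.20), sri-78 (1.63) and srd-13 (1.41). Members were taken by name alone (mainly str, or sr with further letters), without a check of what each encodes. By this rule srap-1 (1.15 over 102 fragments, against a family median of 6) was also counted among the 15. Among these srxa-8 was high in all 4 groups, with 1.33 in wild-type hypodermis, 1.54 in wild-type intestine and 0.88 in mutant intestine. F-box genes, with which 24 sdz genes were grouped by name, had 7 of 298 members in the highest tail and 5 in the lowest. Of the sdz genes 0 were in either tail. BATH and MATH genes had 0 of 57 members in both. Homeobox genes had 1 of 74 members in each tail. Of 43 genes of the major sperm protein and other sperm families 1 was in the highest tail and 5 were in the lowest (11.6%). Nuclear hormone receptors had 16 of 248 in the highest tail (6.45%) and 7 in the lowest, from nhr-286 (1.77) and nhr-114 (1.66) to nhr-117 (-0.69). Of 84 neuropeptide genes 5 were in the highest tail, led by flp-23 (1.46) and flp-28 (1.37), the former beside F22B7.9.

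Genes were also listed by name prefix, without grouping by function. Among the 101 prefixes with at least 15 ranked members the highest medians were those of rps (0.14), col (0.05), rpl (0.04), vha (0.03), mrps (0.03), ptr (0.02), tbx (0.02) and lgc (0.01). The lowest were eif (-0.13), ztf (-0.11), lido (-0.11), cutl (-0.10), dnj (-0.09), mig (-0.08), dhs (-0.08) and let (-0.08). These medians are small beside the spread of single genes, whose SD over the ranking was 0.30. Of the 814 genes of the highest tail 186 were in one of the 40 families and 331 had only a sequence name (40.7%, against 43.5% of all ranked genes). In the lowest tail the counts were 142 and 373.

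Spread and calls varied with fragment number. The SD of the scores was 0.33 in 6575 genes with 4 to 7 fragments, 0.29 with 8 to 15, 0.26 with 16 to 31 and 0.21 in 927 genes with 32 or more. The share in the highest tail was 4.93% in the first class and 3.34% in the last, and the share in the lowest tail was 6.04% and 0.65%. Calls went the other way, from 5.86% of genes with 4 to 7 fragments to 14.6% of genes with 32 or more. A score of a given size in a long gene such as vab-10 or fasn-1 therefore rests on more fragments than in a short collagen or ribosomal protein gene.

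**Figure D4:**
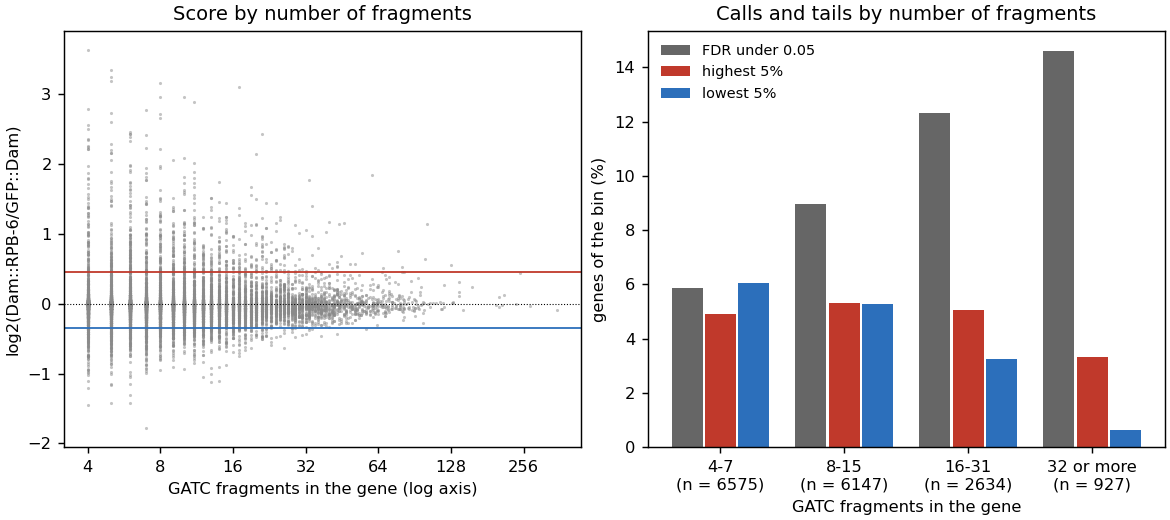
Left, deposited score of each ranked gene against its number of GATC fragments on a log axis, with the edges of the highest (red) and lowest (blue) tail. Right, percentage of genes in each fragment class that were called at an FDR under 0.05 (grey) or lay in the highest (red) or lowest (blue) tail, where calls go from 5.86% to 14.6% and the lowest tail from 6.04% to 0.65%.

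Position and length also differed between the tails and all genes. The middle of 3 equal parts of each chromosome held 38.3% of all placed genes, 48.5% of the highest tail and 57.3% of the lowest. The chromosomes differed little, with 4.11% (IV) to 5.96% (II) of their ranked genes in the highest tail and 4.33% (V) to 5.78% (IV) in the lowest. Median length was 2410 bases for all genes, 2067 for the highest tail and 1609 for the lowest, and GATC sites were denser in both tails (3.75 and 4.39 per kb, against 3.23). Genes of 1 tail were often neighbours. In the highest tail 24.5% of genes stood next to another ranked gene of that tail, whereas 9.58% of all genes did, and in the lowest tail 25.8% did, against 9.67%. Overlap with another gene was seen for 33.5% and 31.2% of the tails and 27.9% of all genes.

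Scores of the same genes in the other groups are given side by side. Of the 814 genes of the highest tail 299 (36.7%) were in the highest tail of wild-type hypodermis, 180 (22.1%) in that of wild-type intestine and 160 (19.7%) in that of mutant intestine, where 5.00% of all genes are. Their median score was 0.76 here, 0.21 in wild-type hypodermis, -0.07 in wild-type intestine and 0.01 in mutant intestine. Because the genes were picked for a high score in 1 table, lower values elsewhere follow in part from the choice. Of the lowest tail 379 genes (46.6%) were also lowest in wild-type hypodermis, 318 (39.1%) in wild-type intestine and 268 (32.9%) in mutant intestine. Opposite ends were met too, since 27 genes of the highest tail were in the lowest tail of wild-type hypodermis and 42 the other way round. The spread of all scores was wider here (SD 0.30) than in the other tables (0.21 to 0.27), and 1836 genes were called in wild-type hypodermis, 1490 in wild-type intestine and 2008 in mutant intestine.

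The plot of the 20 highest and 20 lowest genes shows how unlike single genes were across groups. F14E5.8, F21C3.7, F22B7.9, eef-1A.2 and rpl-1 were well above 0 in all 4 groups, with F14E5.8 at 2.96 here and 2.87, 3.79 and 1.95 in wild-type hypodermis, wild-type intestine and mutant intestine. Both hypodermal tables had high values and both intestinal tables values near or below 0 for col-39 (3.19 and 1.89, against -0.27 and -0.04), clec-1 (3.63 and 0.85, against -0.39 and -0.28), lec-2 (2.43 and 0.91, against -0.005 and 0.05) and Y40C7B.4 (2.74 and 1.03, against -1.87 and -0.96). Others were high in this table and near or below 0 in the remaining 3, such as C29E4.9 (2.60, against -0.08, -0.29 and -0.20), phf-30 (2.56, against 0.17, -0.02 and -0.36) and mag-1 (2.42, against -0.51, -0.20 and -0.06). At the low end trx-2 was low in all 4 groups (-1.44, -1.18, -1.56 and -0.79). The protease cpr-6 was low in both hypodermal tables (-1.12 and -0.89) and high in both intestinal ones (1.17 and 0.67). For fkb-1 the score was -1.30 here and 0.21, 0.34 and 0.05 in the other groups, and for tin-13 it was -1.43 against 0.57, -0.31 and -1.02. Of the 20 highest genes 16 were in the highest tail of wild-type hypodermis, and of the 20 lowest 16 were in its lowest tail.

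**Figure D5:**
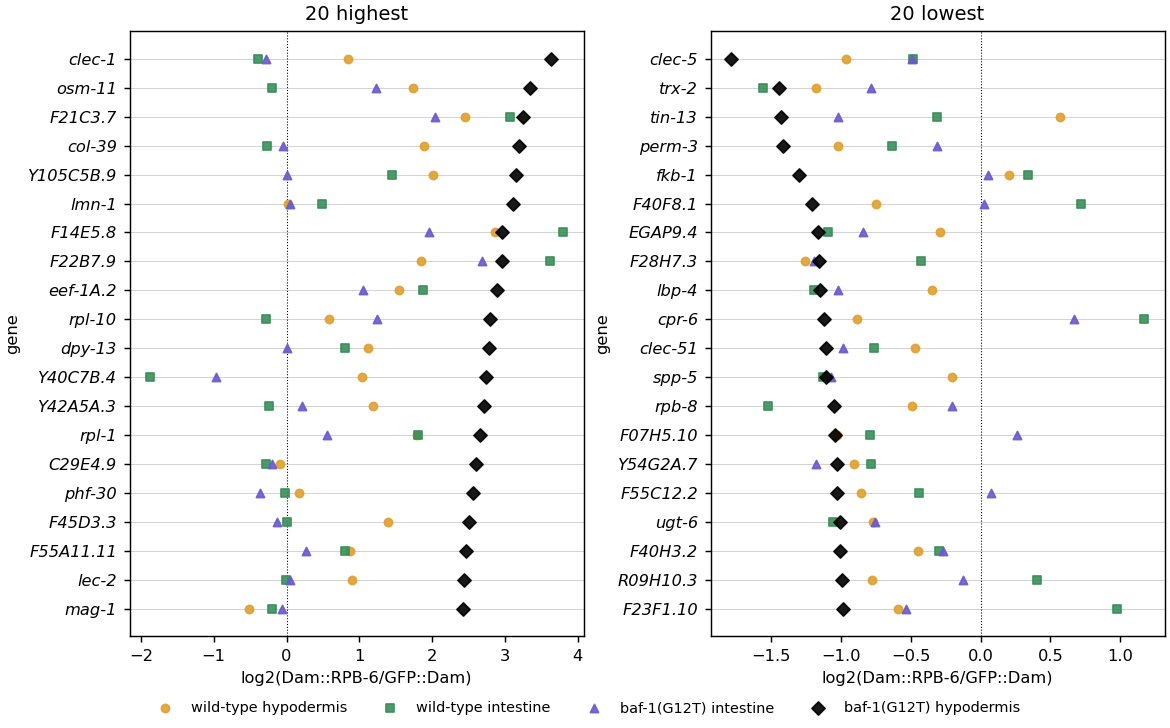
Deposited scores of the 20 highest (left) and 20 lowest (right) genes of the baf-1(G12T) hypodermis ranking (black diamonds) and of the same genes in wild-type hypodermis (circles), wild-type intestine (squares) and mutant intestine (triangles), 1 value for each gene and group. The diamonds lie between 2.42 and 3.63 on the left and between -1.79 and -0.99 on the right, and the other symbols are scattered.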

How the data were processed

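RAPID libraries of 16 samples (Dam::RPB-6 or GFP::Dam, 2 replicates for every tissue and genotype) were processed by the authors. Reads with the DamID adapter at GATC sites of the ce11 genome were kept with RDamIDSeq, Dam::RPB-6 was normalized to GFP::Dam with damidseq_pipeline, and polii.gene.call gave each gene a score on the log2 scale and an FDR, a q-value for transcription, as deposited. The versions of damidseq_pipeline and polii.gene.call and the way the replicates were combined are not given in the sources used here. Deposited tables further list the number of GATC fragments in each gene, which equalled the GATC sites in its span plus 1 for 98.6% of 19946 placed genes.

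Of 19985 rows, 11 without a gene name and 3691 with fewer than 4 fragments were left out, and the remaining 16283 genes were ranked by score. Calls used the authors' FDR at 0.05. No test was run, because the tables hold 1 value per gene and group. Wilson intervals (95%) cover counting of genes only. Genes were placed by name with Ensembl (19310) or RefSeq (636) annotation of WBcel235, and 28 were not placed. Families were defined by gene names. Members, families and marker lists were chosen with earlier results of these data known, and the motifs were chosen after the ranking was seen. The text names the 20 highest and 20 lowest genes, the 10 highest with at least 16 fragments, the highest, the lowest and up to 8 tail members of each family, the markers, the genes rpb-6, F14E5.8, dod-3, mua-6, emr-1, lmn-1 and baf-1, and the 8 prefixes with the highest and the lowest median. Neighbours of these genes, further family members near the tails and genes with fewer than 4 fragments were named after their values were seen. Alternatives were other FDR thresholds (0.01 and 0.1), fragment minimums (2, 8 and none) and tails (1% and 10%), protein-coding genes, ranking within fragment numbers, 1 gene for each overlapping run, and scores minus the running median of 25 neighbours on each side. The ranking code was tested on simulated data. Scripts used matplotlib 3.10.9, scipy 1.17.1, pandas 2.3.3 and numpy 2.4.6 under Python 3.11.15.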

Additional observations from a re-analysis of the deposited data

Results flagged for a closer look

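Genes outside the ranking, with fewer than 4 GATC fragments, also carried signal over GFP::Dam, which is why they are given here. Of 3691 such genes 108 (2.93%) were called at an FDR under 0.05, and 130 had a score past the lower edge of the highest tail. The antimicrobial peptide gene nlp-33 scored 3.64 over 3 fragments, above every ranked gene, and 2.19 in wild-type hypodermis, -0.09 in wild-type intestine and -0.13 in mutant intestine. The copper chaperone gene cuc-1 scored 2.71 over 2 fragments, and the collagens dpy-5 and rol-6 scored 2.30 and 1.36 over 2 and 3. Ribosomal protein genes were frequent among them, with 8 of 36 called, led by rpl-43 (2.48) and rpl-30 (2.35). A gene with 1 fragment shares it with whatever overlaps it, as seen for rpl-28 and R11D1.13, both listed at 2.03. The intestinal gene dod-3 scored -0.96 over 3 fragments, -0.57 in wild-type hypodermis, -0.93 in wild-type intestine and 0.09 in mutant intestine.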

How the results depend on the processing

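Called genes numbered 901 at an FDR under 0.01 instead of 1396, and between 1011 and 1741 under the other alternatives. Relative to the share of all genes, cuticle collagens were 3.23 times as frequent in the highest tail, ribosomal proteins 7.66 times and chemoreceptors 0.302 times, and lysozymes and saposin-like genes 5.72 times in the lowest. With a tail of 1% these ratios were 8.38 for collagens, 14.9 for ribosomal proteins and 17.8 for lysozymes, and with a tail of 10% the ratio for ribosomal proteins was 4.68. A narrower or wider tail changes these ratios by construction. All other alternatives left the 4 ratios inside their main intervals. Of 718 family shares recomputed under 9 alternatives, 668 stayed inside the interval of the main share, 10 were higher and 40 lower, with 37 of the 50 under the 1% tail and 10 under a minimum of 8 fragments, which ranks fewer genes. The single genes at the ends depend on the fragment minimum. With at least 2 fragments 17 of the 20 highest and 12 of the 20 lowest were shared with the main ranking, and with at least 8 fragments 8 and 4 were.

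No paired analysis was possible because the tables hold 1 score per gene for both replicates. For the same reason leaving out a replicate was not run. Leaving out genes near the construct insertion was not run, because the study names the locus, ttTi5605 on chromosome II, without a base position. The part of unequal depth in the scores was not tested. At a score near 0, a silent gene and a gene with few reads cannot be told apart.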

Other observations

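Among the 22 epidermal antimicrobial peptide genes (nlp and cnc families), which hypodermal cells express on wounding or fungal infection, only 3 had enough fragments for the ranking, and these scored from -0.05 to 0.03. The other 19 had a median score of 0.34, with 2 called and 5 past the edge of the highest tail. Of all genes with fewer than 4 fragments 2.93% were called. In lipid metabolism the 98 ranked genes reached both ends, with 7 in the highest tail and 8 in the lowest, from fasn-1 (1.83) to lbp-4 (-1.15), and 15 were called (15.3%, against 8.57% of all ranked genes). Of 24 histone acetyltransferase and deacetylase genes 5 were called (20.8%, against the same 8.57%), and epc-1 (0.81) and cbp-3 (0.46) were in the highest tail. The degenerin channel gene del-6 (1.44) was the highest of 169 neuronal channel and receptor genes, of which 5 were in the highest tail and 4 in the lowest. It scored 1.15 in wild-type hypodermis, -0.33 in wild-type intestine and -0.18 in mutant intestine.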
